A study of Mus musculus with 5 samples.

Results

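The genes described here are 10 transcription factors known from mesothelium and from the mesenchyme of internal organs: Wt1, Bnc1, Isl1, Gata4, Gata5, Gata6, Hand2, Tcf21, Nr2f1 and Nr2f2. They were listed by name, with no threshold on their values, and make up 10 of the 32285 genes in the count tables. All 10 were listed and had counts, from 545 unique molecular identifiers (UMIs, counted transcript molecules) for Gata4 to 11020 for Wt1 over the retained nuclei. Single-nucleus RNA sequencing had been run on white adipose tissue of 10-week-old male wild type mice on chow diet, to compare 5 depots. These were the peri-heart (HWAT), perirenal (NWAT), mesenteric (MWAT) and epididymal (EWAT) fat, together called the cavity depots here, and subcutaneous fat (SWAT). Each depot was a single library of pooled tissue, from 6 mice for SWAT, EWAT and NWAT, 10 for MWAT and 20 for HWAT. All mice had a heparin perfusion, and SWAT and MWAT were freed of lymph nodes. The protocol names C57BL/6J for all mice, while the strain field gives HWAT as C57BL/9J, NWAT as C57BL/8J, MWAT as C57BL/7J and only SWAT and EWAT as C57BL/6J. Nothing in the labels marks separate pools within a depot.

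The mesothelium is the sheet of flat epithelial cells that lines the peritoneal, pleural and pericardial cavities and covers the organs and fat pads inside them. It arises from lateral plate mesoderm, and embryonic mesothelium gives rise to fibroblasts, pericytes and smooth muscle of several organs. Wt1 is the zinc finger factor by which mesothelium, epicardium and the developing kidney and gonad are commonly recognised. In fat, Wt1 is known as a gene of visceral and not of subcutaneous depots. The GATA factors, Hand2, Isl1 and Tcf21 are regulators of heart, gut and organ mesenchyme in the embryo, and Nr2f1 and Nr2f2 (also called COUP-TFI and COUP-TFII) are orphan nuclear receptors.

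The libraries held 23313545 to 43855063 UMIs in 12324 to 19770 barcodes, each with 500 UMIs or more. After filtering, 66249 nuclei remained, with medians of 1192 (MWAT) to 2472 (NWAT) UMIs, and 598 barcode sequences occurred in more than 1 library. The nuclei were clustered without the 10 genes, but not without their neighbouring or antisense transcripts. Clusters were named by marker lists that also left out the 10 genes. A class is therefore written as mesothelial-like, FAP-like (fibro-adipogenic progenitors, stromal cells that include adipocyte precursors) and so on. Of 37 clusters 32 were named, into 15 classes, and 46 combinations of class and depot held 50 nuclei or more. Levels are CPM: all UMIs of a gene in a class and library, per 1000000 UMIs of the same nuclei. The range in parentheses is the exact 95% Poisson interval, or for a ratio of CPM the exact conditional interval. These ranges cover counting error only. With 1 library per depot there is no replicate, so no test between depots and no p-value is given. A difference between depots cannot be told apart from a difference between libraries.

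Mesothelial-like nuclei numbered 1718 in EWAT, 3974 in MWAT, 1000 in NWAT, 4122 in HWAT and 2 in SWAT. All 12 markers of the mesothelial list (among them Msln, Upk3b, Lrrn4 and Muc16) had counts in each of the 4 depots with such nuclei. Their summed level was 8486 CPM in HWAT and 14167 to 14915 CPM in the others. Each depot filled mainly its own clusters within the class, so a comparison of depots is also one of different clusters. Nuclei of other classes held some mesothelial RNA: of macrophage-like nuclei, 33.1% in NWAT to 50.8% in MWAT held a UMI of the list, against 0.878% in SWAT. The macrophage-like level of each gene in the same library is therefore given as a reference level for free RNA. A macrophage type of the body cavities is itself known to express Gata6, which is given further on.

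Most of the 10 genes were found in mesothelial-like nuclei of every cavity depot. Levels are not scaled to gene length and are compared between depots and classes, not between genes. Of the 10 genes, 8 were above the macrophage-like level by an interval that excluded 1 in EWAT and NWAT mesothelial-like nuclei, and 9 in MWAT and HWAT. Nr2f1 and Tcf21 were not in EWAT and NWAT, Gata4 was not in MWAT and Nr2f1 was not in HWAT.

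Wt1 (ENSMUSG00000016458, chr2:105126529-105173616, plus strand, all gene positions in GRCm38) stood at 681 CPM (658–704) in mesothelial-like nuclei of MWAT. It stood at 561 CPM (529.9–593) in NWAT, 555 CPM (530.2–580.4) in EWAT and 473 CPM (457–489.9) in HWAT. MWAT was the highest and HWAT the lowest, and NWAT and EWAT could not be separated by counting error, at a ratio of 1.01 (0.9398–1.09). The next class was FAP-like in all 4 depots, and mesothelial-like over FAP-like nuclei the ratio was 4.64 (4.04–5.34) in EWAT, 6.09 (4.99–7.49) in MWAT, 9.34 (7.71–11.4) in NWAT and 2.52 (2.05–3.13) in HWAT. This gap depends on how the FAP-like class is drawn: with each library clustered alone, the CPM of Wt1 in mesothelial-like nuclei of HWAT was 466, and the CPM of Wt1 in FAP-like nuclei of HWAT was 480. When every nucleus took the class of its own highest marker score, the values were 564 and 377 CPM in MWAT. Mesothelial-like nuclei held 82.2% of the Wt1 UMIs of EWAT, 87.8% of NWAT, 89.1% of MWAT and 93.4% of HWAT. Outside the mesothelial-like and FAP-like classes, Wt1 was above the macrophage-like level in pericyte-like nuclei of NWAT, at 32.2 CPM (17.6–54.1). It was also above that level in an unnamed MWAT cluster given below. In SWAT only 2 Wt1 UMIs were counted among 11094 nuclei, and both lay in the 2 nuclei that its library had in the mesothelial-like class.

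A Wt1 UMI was seen in 46.3% (HWAT) to 61.6% (NWAT) of mesothelial-like nuclei. Thinned to 1000 UMIs per nucleus, with shallower nuclei left out, the shares were 40.3% in EWAT, 44.6% in MWAT, 39.98% in NWAT and 34.4% in HWAT. The thinned shares of macrophage-like nuclei were 0.479% to 1.14% in the same depots. Median depths were 1195 to 2080.5 UMIs in mesothelial-like and 1008 to 1969 in macrophage-like nuclei.

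Bnc1 (ENSMUSG00000025105, chr7:81966672-81992292, minus strand) encodes basonuclin 1, a zinc finger protein best known from stratified epithelia and germ cells. It ran in the order EWAT, MWAT, NWAT, HWAT, at 177 CPM (163–192), 158 CPM (147–169), 122 CPM (108–137) and 66.4 CPM (60.4–72.7). Each step in that order exceeded counting error, the largest being NWAT over HWAT at 1.84 (1.58–2.14). FAP-like nuclei held 2 Bnc1 UMIs in EWAT, 1 in MWAT and 0 in SWAT, NWAT and HWAT. Outside the mesothelial-like class, Bnc1 was above the macrophage-like level in the unnamed MWAT cluster 26, led by Paneth cell defensins, at 34.1 CPM (18.2–58.3). It was also above that level in plasma cell-like nuclei of HWAT, at 10.3 CPM (2.801–26.3) on few UMIs. In cluster 26, 8 of the 10 genes were above that level, with Wt1 at 86.5 CPM and Isl1 at 49.8 CPM. The part of mesothelial RNA in these values was not tested. Mesothelial-like nuclei held 87.9% (MWAT) to 94.9% (HWAT) of the Bnc1 UMIs.

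Isl1 (ENSMUSG00000042258, chr13:116298281-116309689, minus strand), a LIM homeodomain factor of heart progenitors, motor neurons and endocrine pancreas, varied more between depots than Wt1 did. It stood at 357 CPM (340.4–374) in MWAT, 319.5 CPM (296–344) in NWAT, 228 CPM (212–244) in EWAT and 79.1 CPM (72.7–86.04) in HWAT mesothelial-like nuclei. The 3 abdominal depots all lay above the peri-heart library, with EWAT over HWAT at 2.87 (2.57–3.21). Over FAP-like nuclei of the same library the ratio was 87.1 (37.2–269) in EWAT and 13.1 (4.44–63.5) in HWAT, on 5 and 3 FAP-like UMIs. In HWAT the unnamed cluster 36, led by the airway genes Bpifa1 and Scgb1a1, was not separable from the mesothelial-like class, at 67.7 CPM (37–114) in 58 nuclei.

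The 3 GATA factors, zinc finger proteins of the developing heart and gut, differed from each other. Gata6 (ENSMUSG00000005836, chr18:11052064-11085635, plus strand) was the most even, at 243 CPM (227–260.4) in EWAT, 226 CPM (206–247) in NWAT, 188 CPM (176–200.1) in MWAT and 176 CPM (166–186) in HWAT mesothelial-like nuclei. Only the step from NWAT to MWAT, 1.203 (1.08–1.34), exceeded counting error in that order.

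Gata5 (ENSMUSG00000015627, chr2:180325133-180334699, minus strand) stood at 51.8 CPM (45.7–58.6) in MWAT, 38.4 CPM (33.9–43.2) in HWAT, 33 CPM (27.2–39.7) in EWAT and 17.3 CPM (12.2–23.7) in NWAT. HWAT and EWAT could not be separated. It was nearly confined to the class by its UMIs, 87.97% (MWAT) to 95% (NWAT) of them.

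Gata4 (ENSMUSG00000021944, chr14:63198922-63271692, minus strand) split the depots. It stood at 45.1 CPM (40.3–50.4) in HWAT and 45.1 CPM (36.6–54.9) in NWAT, 8.47 CPM (5.67–12.2) in EWAT and, on 4 UMIs, 0.8097 CPM (0.221–2.07) in MWAT mesothelial-like nuclei. HWAT and NWAT could not be separated, while NWAT over EWAT was 5.32 (3.49–8.35) and EWAT over MWAT 10.46 (3.67–40.9). MWAT, where Isl1 and Wt1 were highest, was thus the depot with the least Gata4.

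Hand2 (ENSMUSG00000038193, chr8:57320983-57324633, plus strand), a basic helix-loop-helix factor of heart, limb and autonomic neurons, stood at 87.4 CPM (79.4–96.1) in MWAT mesothelial-like nuclei. It stood at 39.6 CPM (35.1–44.6) in HWAT, 36.2 CPM (30.1–43.2) in EWAT and 25.9 CPM (19.6–33.6) in NWAT. MWAT over HWAT was 2.21 (1.89–2.57), and HWAT and EWAT could not be separated.

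Nr2f2 (ENSMUSG00000030551, chr7:70351944-70366735, minus strand) was at 166 CPM (155–178) in MWAT, 135 CPM (123–148) in EWAT, 96.9 CPM (84.4–111) in NWAT and 83.5 CPM (76.8–90.5) in HWAT mesothelial-like nuclei. The remaining pair were low there. Tcf21 (ENSMUSG00000045680, chr10:22817281-22820174, minus strand), a basic helix-loop-helix factor of organ fibroblasts, was at 13.4 CPM (10.3–17) in MWAT, 11.6 CPM (9.24–14.5) in HWAT and 2.63 CPM (1.202–4.99) in EWAT, with 0 UMIs in NWAT, which allows up to 1.37 CPM. Nr2f1 (ENSMUSG00000069171, chr13:78188973-78199757, minus strand) was at 15.6 CPM (12.3–19.5) in MWAT and at 0.584 (EWAT) to 2.59 CPM (HWAT) elsewhere.

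**Figure D1:**
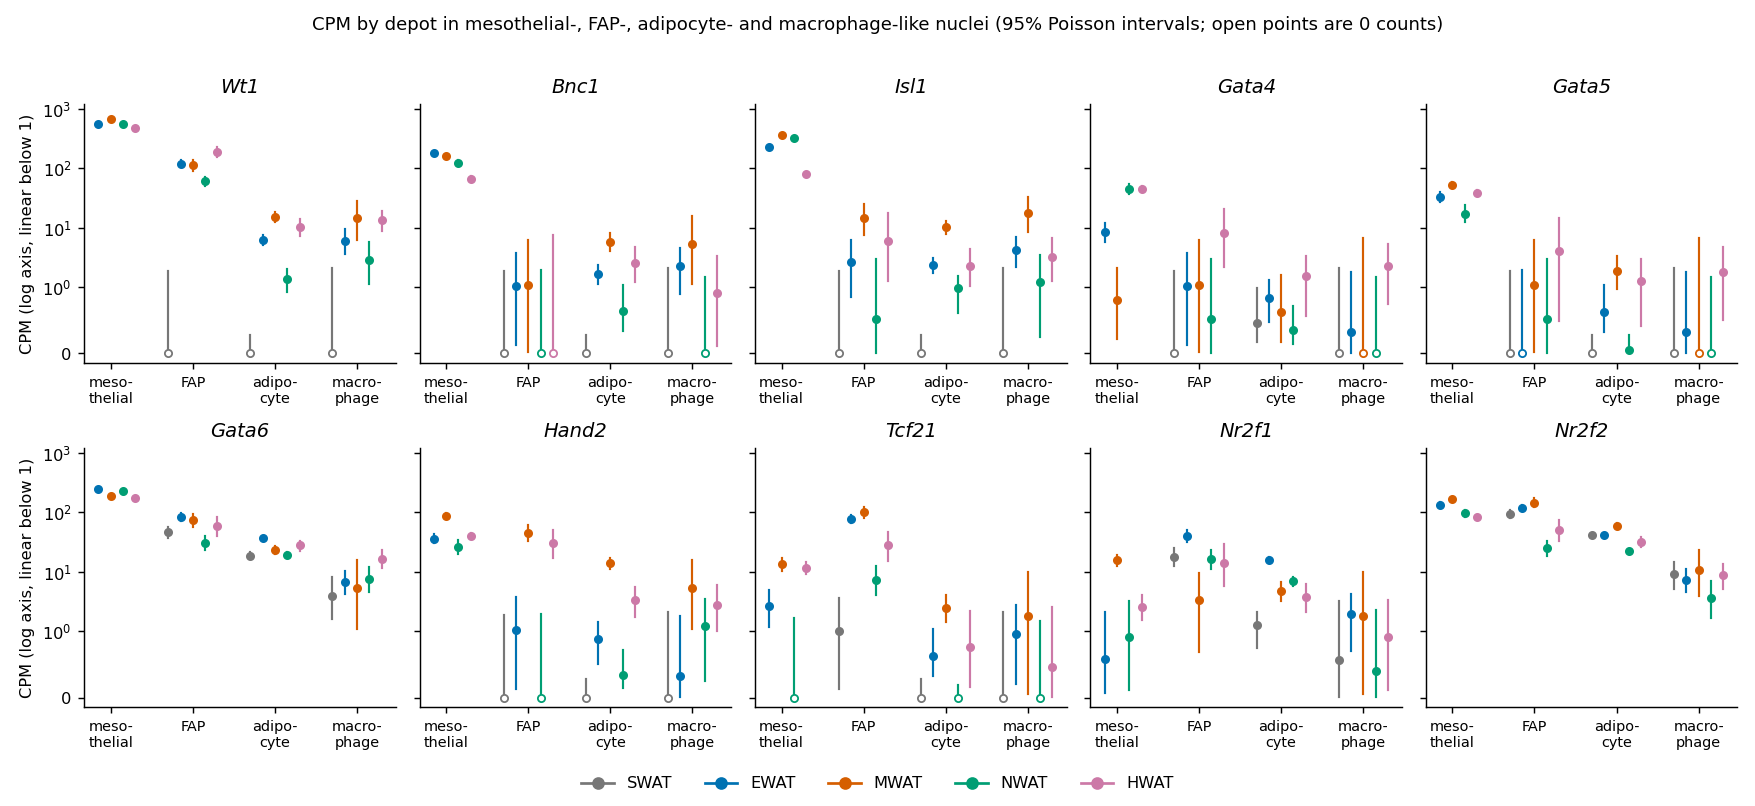
CPM of each of the 10 genes (vertical axis, logarithmic above 1 and linear below) in mesothelial-, FAP-, adipocyte- and macrophage-like nuclei, with 1 point per depot and its 95% Poisson interval. Open points are 0 counts, and SWAT has no mesothelial-like point since its library held 2 such nuclei. Wt1 runs from 473 to 681 CPM in mesothelial-like nuclei, while Gata4 runs from 0.810 to 45.1 CPM.

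Among the 10 genes, Bnc1 ran most like Gata5 (Pearson r 0.94) and then Isl1 (0.87) over the 46 combinations of class and depot. The stretches before their start sites are therefore shown, beside those of Hand2 (0.48 with Bnc1) and Tcf21 (0.08 with Bnc1). Each is the 250 bases before the RefSeq start (GRCm38.p6), read 5′ to 3′ on the gene's strand. Bnc1 is at chr7:81992300-81992549, minus strand, Gata5 at chr2:180334680-180334929, minus strand, Isl1 at chr13:116309689-116309938, minus strand, Hand2 at chr8:57320733-57320982, plus strand and Tcf21 at chr10:22820144-22820393, minus strand. Capitals mark matches on either strand to 4 short motifs: GATAA of GATA factors, GTGGGAG of WT1, CAGCTG of the E-box class and AGGTCA of nuclear receptors.
Bnc1: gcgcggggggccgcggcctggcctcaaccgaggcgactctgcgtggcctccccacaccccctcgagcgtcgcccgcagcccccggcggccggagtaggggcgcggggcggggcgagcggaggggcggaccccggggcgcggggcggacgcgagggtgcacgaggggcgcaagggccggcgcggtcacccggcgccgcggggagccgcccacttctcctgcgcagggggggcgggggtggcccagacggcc
Gata5: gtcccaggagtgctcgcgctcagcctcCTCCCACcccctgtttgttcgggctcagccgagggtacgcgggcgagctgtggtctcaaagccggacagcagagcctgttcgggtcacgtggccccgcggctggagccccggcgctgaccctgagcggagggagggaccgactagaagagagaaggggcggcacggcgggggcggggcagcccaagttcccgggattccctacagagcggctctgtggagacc
Isl1: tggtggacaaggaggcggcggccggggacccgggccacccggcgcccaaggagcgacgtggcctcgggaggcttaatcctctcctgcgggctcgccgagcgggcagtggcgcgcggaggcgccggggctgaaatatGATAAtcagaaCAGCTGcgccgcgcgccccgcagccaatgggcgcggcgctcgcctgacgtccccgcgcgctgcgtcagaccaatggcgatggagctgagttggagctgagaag
Hand2: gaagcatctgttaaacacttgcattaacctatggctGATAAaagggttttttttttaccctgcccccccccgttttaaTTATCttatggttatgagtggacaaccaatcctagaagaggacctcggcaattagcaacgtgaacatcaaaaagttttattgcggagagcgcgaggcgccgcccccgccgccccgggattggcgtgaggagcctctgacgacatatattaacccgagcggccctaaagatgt
Tcf21: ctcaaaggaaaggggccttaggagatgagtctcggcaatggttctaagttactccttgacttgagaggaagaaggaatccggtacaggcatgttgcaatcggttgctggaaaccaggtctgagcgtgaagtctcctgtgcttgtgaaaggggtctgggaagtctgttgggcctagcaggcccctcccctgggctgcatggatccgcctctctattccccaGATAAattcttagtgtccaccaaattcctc
The Gata5 stretch held 1 WT1 match, on the reverse strand. Isl1 held 1 GATA and 1 E-box match, Hand2 held 2 GATA matches, Tcf21 held 1 GATA match, and Bnc1 held none of the 4. Among all 32851 RefSeq promoter entries, 22.6% held a GATA match in the same window, 14.02% a nuclear receptor, 13% an E-box and 8.25% a WT1 match, so matches of this kind are common. The GC content was 83.6% for Bnc1, 71.2% for Isl1, 70% for Gata5, 52.4% for Tcf21 and 49.2% for Hand2, beside a median of 52.4% over all entries. A match to so few letters describes the sequence and shows no binding.

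Mesothelial-like and FAP-like nuclei of the same library share depth and free RNA, so they were compared within each depot. Members were counted as higher or lower past 2-fold where the pair of sums held 20 counts or more, with sums under 3 counts set to 3. In EWAT, 7 of 10 were higher in mesothelial-like nuclei (Wt1, Bnc1, Gata4, Gata5, Gata6, Isl1 and Hand2) and 2 were lower (Tcf21 and Nr2f1), beside 15.5% higher and 9.44% lower of all genes tested the same way. In MWAT, 6 of 9 were higher (Wt1, Bnc1, Gata5, Gata6, Isl1 and Nr2f1) and 1 was lower (Tcf21), beside 14.8% and 8.63% of all genes. In NWAT, 8 of 9 were higher (the EWAT set and Nr2f2) and 1 was lower (Nr2f1), beside 15.7% and 11.3%. In HWAT, 6 of 10 were higher (Wt1, Bnc1, Gata4, Gata5, Gata6 and Isl1) and 2 were lower (Tcf21 and Nr2f1), beside 10.1% and 11.8%. Members such as Bnc1 and Gata5, with 0 to 2 FAP-like UMIs, passed the count minimum through mesothelial-like nuclei alone and could only be counted as higher, so these counts describe the tested members alone. Wt1, Bnc1, Gata5, Gata6 and Isl1 were on that side in all of them. The median log2 ratio of the tested members was 2.32 in EWAT, 2.23 in MWAT, 3.45 in NWAT and 1.46 in HWAT, beside 0.09, 0.10, 0.10 and -0.07 over all genes tested. The member medians include Bnc1 and Gata5 with FAP-like sums set to 3 counts, so they carry the same limit as the counts. With the class set per nucleus by marker score in place of clusters, the higher count was 2 in MWAT and 3 in HWAT. The lower count of HWAT was 0 or 1 under 7 of the settings tried, which are named in the closing section.

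Nr2f1 was the member whose direction turned between depots. It was at 40.2 CPM (31.8–50.3) in FAP-like and 0.584 CPM (0.0707–2.11) in mesothelial-like nuclei of EWAT, on 77 and 2 UMIs. In MWAT it was at 3.32 CPM (0.685–9.71) in FAP-like and 15.6 CPM (12.3–19.5) in mesothelial-like nuclei, on 3 and 77 UMIs. MWAT was the only depot of the 4 with the mesothelial-like value on top, by 4.69 (1.55–23.3). Its antisense neighbour A830082K12Rik, which overlaps Nr2f1 on the other strand, had the same order: 51.2 and 1.17 CPM in EWAT, 17.7 and 56.7 CPM in MWAT, in FAP-like and mesothelial-like nuclei. The sources used here do not state whether counting used strand, so reads of overlapping partners may have been shared.

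FAP-like nuclei numbered 1137 in SWAT, 986 in EWAT, 787 in MWAT, 823 in NWAT and 336 in HWAT. Wt1 was at 0 of 1994785 UMIs in SWAT, which allows up to 1.504 CPM. It was at 188 CPM (152–230.3) in HWAT, 119.7 CPM (105–136) in EWAT, 112 CPM (91.1–136) in MWAT and 60.02 CPM (49.5–72.1) in NWAT. All 4 cavity depots lay far above SWAT, at least 39.9-fold higher in NWAT and at least 125-fold higher in HWAT against the limit of 3 counts. EWAT and MWAT could not be separated from each other.

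The Wt1 of FAP-like nuclei was examined against mesothelial RNA. FAP-like nuclei without a UMI of any of the 12 mesothelial markers held Wt1 at 131 CPM (109 to 155) in 543 EWAT nuclei, 113 (82.4 to 152) in 348 MWAT nuclei, 50.6 (38.5 to 65.3) in 515 NWAT nuclei and 156 (104 to 226) in 133 HWAT nuclei. These intervals all held the value over all FAP-like nuclei of the depot. Lack of a marker UMI does not mark a nucleus as other than mesothelial: 203 mesothelial-like nuclei of HWAT also held none, with Wt1 at 496 CPM (423 to 579). Macrophage-like nuclei stood at 2.83 CPM (NWAT) to 14.4 CPM (MWAT). The mesothelial list summed to 355 CPM in EWAT FAP-like nuclei, and to 261 in NWAT, 742 in HWAT and 791 in MWAT, with all 12 markers present. It summed to 15.5 CPM in SWAT, with Msln, Upk3b, Muc16 and Upk1b at 0. Without Slpi, which cavity macrophages also express, the sums were 94.2 (NWAT) to 612 CPM (HWAT) in FAP-like and 68.2 (NWAT) to 313 CPM (MWAT) in macrophage-like nuclei. In HWAT the FAP-like sum without Slpi, 612 CPM, was above the macrophage-like 310.4 CPM. The Wt1 values depend on how the class is drawn. With each library clustered by itself the HWAT class held 1240 nuclei and Wt1 stood at 480 CPM, and with the class set per nucleus Wt1 stood at 237 CPM in EWAT, 377 in MWAT and 92.3 in NWAT.

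**Figure D2:**
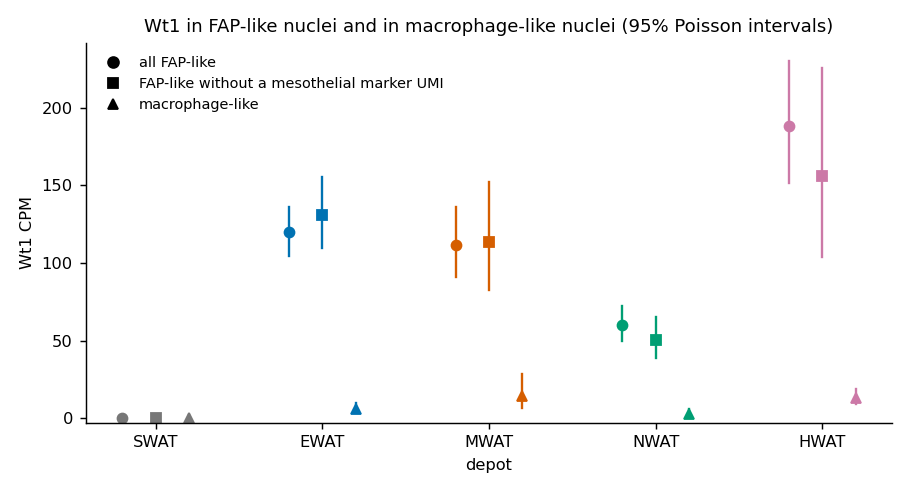
Wt1 CPM (vertical axis) by depot in all FAP-like nuclei (circles), in FAP-like nuclei without a UMI of 12 mesothelial markers (squares) and in macrophage-like nuclei (triangles), with 95% Poisson intervals. In the 4 cavity depots circles and squares lie between 50.6 and 188 CPM and triangles between 2.83 and 14.4 CPM, while SWAT is at 0.

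Tcf21 was past 2-fold higher in FAP-like than in mesothelial-like nuclei of EWAT, MWAT and HWAT, in HWAT on 14 FAP-like UMIs and not under every setting. It stood at 99.6 CPM (80.1–122) in MWAT, 77.3 CPM (65.4–90.9) in EWAT, 28.3 CPM (15.5–47.5) in HWAT, 7.37 CPM (4.03–12.4) in NWAT and 1.003 CPM (0.121–3.62) in SWAT FAP-like nuclei, the last on 2 UMIs. MWAT and EWAT could not be separated, and EWAT over SWAT was 77.1 (20.98–643). NWAT, with Wt1 in its FAP-like nuclei but little Tcf21, lay far from EWAT. Thinned to 1000 UMIs, a Wt1 UMI and a Tcf21 UMI met in 2 of the 85 EWAT and 3 of the 41 MWAT FAP-like nuclei that held Wt1. They met in 0 of 44 such nuclei of NWAT and 0 of 42 of HWAT. In EWAT, Tcf21 was seen in 2.35% of nuclei with Wt1 and 7.36% of those without. In MWAT the shares were 7.32% and 8.48%. The intervals of the shares with and without Wt1 overlapped in each depot.

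Gata6 and Nr2f2 were present in FAP-like nuclei of all 5 depots, SWAT included. Gata6 stood at 84.7 CPM (72.1–98.7) in EWAT, 74.2 CPM (57.5–94.2) in MWAT, 58.6 CPM (39.3–84.2) in HWAT, 46.6 CPM (37.6–57.1) in SWAT and 30.5 CPM (23.2–39.5) in NWAT. Of the neighbours in this order, only SWAT and NWAT differed beyond counting error. The order depends on the setting: Gata6 in HWAT was 166 CPM with each library clustered alone. When every nucleus took the class of its own highest marker score, Gata6 was 141 CPM in HWAT, 128 in EWAT and 121 in MWAT. Nr2f2 stood at 145 CPM (121–172) in MWAT, 118 CPM (103–135) in EWAT, 94.2 CPM (81.3–109) in SWAT, 50.5 CPM (32.7–74.6) in HWAT and 24.7 CPM (18.2–32.9) in NWAT. With each library clustered alone, Nr2f2 in HWAT was 132 CPM. It also differed between FAP-like sub-clusters of a depot. In EWAT it was 472 CPM in sub-cluster 0 and 48.6 in sub-cluster 4. In SWAT it was 349 CPM in sub-cluster 7 and 62.4 in sub-cluster 1. The depots held these sub-clusters in different shares, and the part of this in the order of depots was not tested. Nr2f1 stood at 40.2 CPM (31.8–50.3) in EWAT, against 18.05 CPM (12.6–24.98) in SWAT, 16.3 CPM (11.1–23.2) in NWAT, 14.2 CPM (5.69–29.2) in HWAT and 3.32 CPM (0.685–9.71) in MWAT.

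Hand2 was above the macrophage-like level in FAP-like nuclei of MWAT and HWAT, at 45.4 CPM (32.6–61.6) and 30.3 CPM (16.97–50.01) in FAP-like nuclei, which could not be separated. The HWAT value rests on 15 UMIs, under the minimum of 20 for a comparison with SWAT. In MWAT, 755 of the 787 FAP-like nuclei lay in a sub-cluster led by Gal, Reg3b, Acta2 and Defa24, with Actg2 and Tagln. The 9 smooth muscle markers summed to 797 CPM in MWAT FAP-like and 748 CPM in its macrophage-like nuclei, and their part in the Hand2 value was not tested. Hand2 had 2 UMIs in EWAT and 0 in SWAT and NWAT. Its partner Hand2os1, a transcript from the opposite strand at the same locus, was at 105 CPM in MWAT, 8.09 in HWAT, 0.523 in EWAT and 0 in SWAT and NWAT FAP-like nuclei. Isl1 in MWAT FAP-like nuclei, 14.4 CPM, was no higher than in macrophage-like nuclei of that library, 17.98 CPM. Bnc1, Gata4 and Gata5 had at most 4 UMIs in any FAP-like sum.

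Against SWAT, 3 of 5 tested members were past 2-fold higher in EWAT FAP-like nuclei (Wt1, Tcf21 and Nr2f1) and 0 lower, beside 6.5% and 4.53% of all genes tested. In MWAT, 3 of 6 were higher (Wt1, Tcf21 and Hand2) and 1 was lower (Nr2f1), beside 7.21% and 6.56%. In NWAT, 1 of 4 was higher (Wt1) and 1 was lower (Nr2f2), beside 5.45% and 6.44%. In HWAT, 1 of 4 was higher (Wt1) and 0 were lower, beside 9.9% and 11.8%. Wt1 was the single member on the higher side in all 4. These 4 comparisons share the SWAT library. A member passes the count minimum here mostly through the depot in which it is high, so these counts describe the tested members alone.

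Adipocyte-like nuclei numbered 6183, 8000, 3998, 6090 and 1889 in SWAT, EWAT, MWAT, NWAT and HWAT. Gata6 and Nr2f2 were above the macrophage-like level in all 5 depots, and Nr2f1 in EWAT and NWAT. Gata6 stood at 37.1 CPM (34.4–39.9) in EWAT, 27.7 CPM (22.8–33.5) in HWAT, 23.5 CPM (19.9–27.6) in MWAT, 19.1 CPM (17.3–21.1) in NWAT and 18.7 CPM (16.4–21.2) in SWAT, and the last pair could not be separated. With the macrophage-like level subtracted, Gata6 was 30.4 CPM in EWAT, 18.1 in MWAT, 14.7 in SWAT, 11.4 in NWAT and 11.3 in HWAT, which puts HWAT last. The HWAT reference includes large cavity macrophage-like nuclei with Gata6 at 99.7 CPM, while its resident macrophage-like nuclei stood at 8.65 CPM. Subtraction without the large cavity macrophage-like nuclei was not tested. Nr2f2 stood at 59.6 CPM (53.8–65.95) in MWAT, 42.1 CPM (39.3–45.1) in EWAT, 41.7 CPM (38.3–45.4) in SWAT, 31.8 CPM (26.5–37.9) in HWAT and 22.3 CPM (20.3–24.5) in NWAT.

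Nr2f1 also differed between depots in adipocyte-like nuclei. It stood at 15.7 CPM (13.96–17.5) in EWAT, 6.901 CPM (5.801–8.15) in NWAT, 4.71 CPM (3.18–6.72) in MWAT, 3.82 CPM (2.14–6.298) in HWAT and 1.296 CPM (0.755–2.08) in SWAT, and EWAT over SWAT was 12.1 (7.43–21.04). A Nr2f1 UMI was seen in 3.52% of EWAT and 0.275% of SWAT adipocyte-like nuclei, or 1.55% and 0.189% at 1000 UMIs per nucleus. The EWAT macrophage-like share at that depth was 0.0726%. Adipocyte-like nuclei held 74.6% of the Nr2f1 UMIs of EWAT, beside 57.8% of all UMIs of that library. They held 72.02% of the Nr2f1 UMIs of NWAT, where they also held most of all UMIs. By CPM, Nr2f1 was higher in FAP-like nuclei of both, at 40.2 CPM in EWAT and 16.3 CPM in NWAT.

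Wt1 in adipocyte-like nuclei stood at 0, 6.23, 15.2, 1.39 and 10.2 CPM in SWAT, EWAT, MWAT, NWAT and HWAT. The macrophage-like values were 0, 6.08, 14.4, 2.83 and 13.3 CPM in the same order, so no Wt1 above the free RNA level was detectable in adipocyte-like nuclei. The same held for Bnc1 and Isl1. Past 2-fold over SWAT were 4 of 7 tested members in EWAT (Wt1, Bnc1, Isl1 and Nr2f1), 5 of 7 in MWAT (those and Hand2), 3 of 5 in NWAT (Wt1, Isl1 and Nr2f1) and 2 of 4 in HWAT (Wt1 and Nr2f1), with 0 lower in each. The shares of all genes that were higher were 7.34%, 7.53%, 4.84% and 9.59%, and the shares lower were 4.51%, 4.9%, 9.06% and 18.5%. Wt1, Bnc1, Isl1 and Hand2 had 0 UMIs in SWAT adipocyte-like nuclei and could only be counted as higher. Of these members, Nr2f1 alone lay above the macrophage-like level by its interval, in EWAT and NWAT. With the macrophage-like level subtracted, the counts were 2 in EWAT and 1 in NWAT. Hand2 in MWAT adipocyte-like nuclei was 14.1 CPM (11.4–17.4) beside 5.395 CPM (1.11–15.8) in macrophage-like nuclei.

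Several members had their highest level outside the mesothelial-like and FAP-like classes. Hand2 stood at 501 CPM (433–577) in the 341 Schwann- or glia-like nuclei of MWAT and at 156 CPM (144–168) in its 3168 smooth muscle-like nuclei, both above mesothelial-like nuclei of that library. The 36 glia-like nuclei of SWAT held 0 Hand2 UMIs, which allows up to 48.7 CPM. Hand2 is known as a factor of enteric neurons and gut muscle, and the smooth muscle-like and interstitial cell of Cajal-like nuclei (pacemaker cells of the gut wall) came from MWAT but for 1 nucleus. Tcf21 was highest in the unnamed MWAT cluster 30, led by Robo2, Kcnn3 and Pdgfra, at 356 CPM (293–429) in 282 nuclei, 3.57 (2.68–4.78) times the FAP-like value of MWAT. Pdgfra is a marker of the FAP list, and the lists closest to this cluster were those of pericytes and then FAP. Interstitial cell of Cajal-like nuclei held Tcf21 at 71.7 CPM (50.8–98.5) and smooth muscle-like nuclei at 37.1 CPM (31.6–43.4).

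Nr2f2 is a known factor of veins and lymphatic vessels. In lymphatic endothelial-like nuclei it stood at 637 CPM (559.8–723) for EWAT and 565 CPM (496–642) for MWAT, which could not be separated. Pericyte-like nuclei held 312 CPM (245–393) in MWAT, 226 CPM (187–269.9) in SWAT, 219.5 CPM (164–287) in EWAT and 189 CPM (150.1–234) in NWAT. Its highest level in any class or sub-cluster with 30 nuclei or more of a depot was 2013 CPM (1734–2324) in the 38 SWAT nuclei of the unnamed cluster 35, led by Sfrp5 and Ntng1. The marker list closest to that cluster was the FAP list.

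Within endothelial-like nuclei both Nr2f2 and Gata6 differed between sub-clusters. Nr2f2 stood at 379 CPM (340.3–420.4) in SWAT, 410.3 CPM (373–451) in EWAT, 437 CPM (362–524) in MWAT and 331 CPM (291–375) in NWAT venous-like nuclei. In the main arterial-like sub-cluster of the same depots it was 4.54, 12.7, 12.1 and 7.52 CPM. The venous-like values were the higher in all 4, by 32.3 (15.6–80.9) in EWAT. Gata6 was in venous-like nuclei (37.4 to 94.3 CPM) and in arterial-like nuclei of sub-cluster 2 (36.2 to 52.6 CPM in those depots), and low in capillary-like nuclei (0 to 18.7 CPM). EWAT venous-like over capillary-like nuclei was 13.4 (7.17–27.7). A second arterial-like sub-cluster held more, at 179 CPM (138–229) for EWAT and 139 CPM (99.1–190.5) for MWAT. In the unnamed sub-clusters 5 (MWAT, led by Adgrg6 and Gria3) and 9 (EWAT, led by Gria3 and Pcdh7) both genes were high: Gata6 at 163 and 142 CPM, and Nr2f2 at 457 and 597 CPM. Neither gene had been used to form the sub-clusters, but their overlapping transcripts 1010001N08Rik and B130024G19Rik had not been left out.

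**Figure D3:**
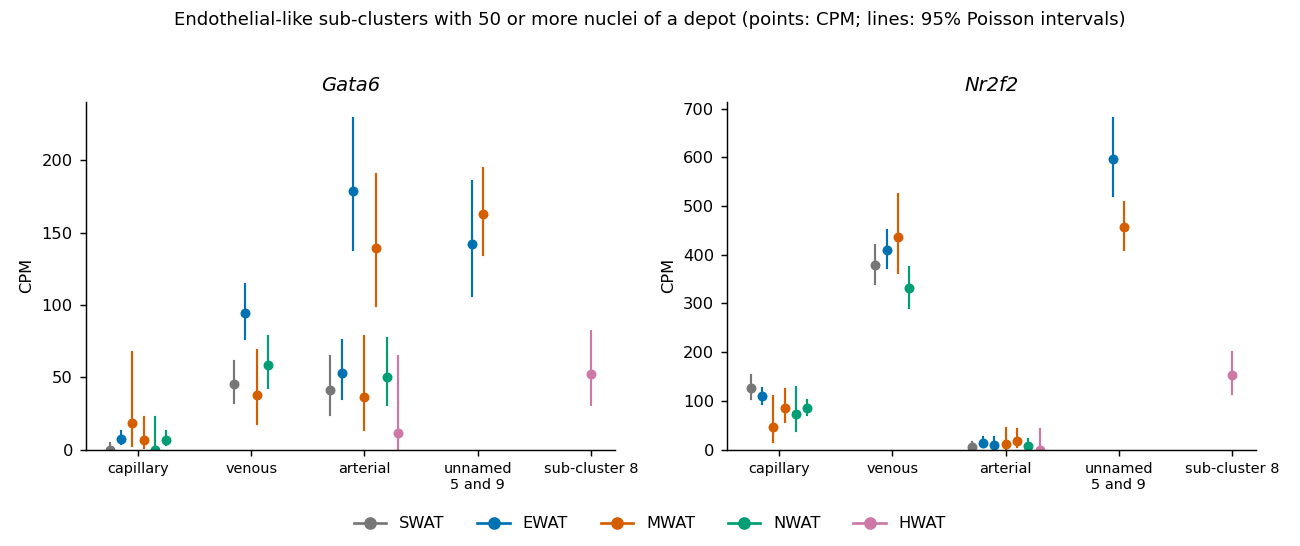
CPM of Gata6 (left) and Nr2f2 (right) in endothelial-like sub-clusters with 50 nuclei or more of a depot, as points with 95% Poisson intervals, coloured by depot. Nr2f2 lies at 331 to 437 CPM in the venous-like group and at 0 to 17.9 CPM in the arterial-like group, while Gata6 lies at 0 to 18.7 CPM in the capillary-like group.

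Gata4 and Hand2 were also found in endothelial-like nuclei of HWAT, at 50.9 CPM (32.9–75.1) and 28.5 CPM (15.6–47.8) over 377 nuclei. In the other 4 depots Gata4 was at 0 to 0.586 CPM in that class. All 25 Gata4 UMIs lay in sub-cluster 8, in 12 of its 276 HWAT nuclei, at 72.3 CPM (46.8–107). That sub-cluster is led by Igkc and Scgb1a1, transcripts of antibody-forming and airway cells, and by Ccl21a of lymphatic vessels, and Wt1 stood there at 14.5 CPM, near the macrophage-like 13.3 CPM. Gata4 in macrophage-like nuclei of HWAT was 2.29 CPM. The part of free RNA in the sub-cluster's profile was not tested.

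Among macrophage-like nuclei, Gata6 stood out in the sub-cluster with the markers of large cavity macrophages (Alox15, Prg4 and Saa3 among its leading genes), peritoneal and pleural cells known to depend on Gata6. It stood at 99.7 CPM (60.9–154) in 89 HWAT nuclei, against 8.65 CPM (4.61–14.8) in 802 resident macrophage-like nuclei, a ratio of 11.5 (5.45–25.2). The macrophage-like reference of Gata6 in HWAT, 16.5 CPM, therefore contains these nuclei. Wt1 was at 14.96 CPM in the sub-cluster, about the level of the whole class.

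**Figure D4:**
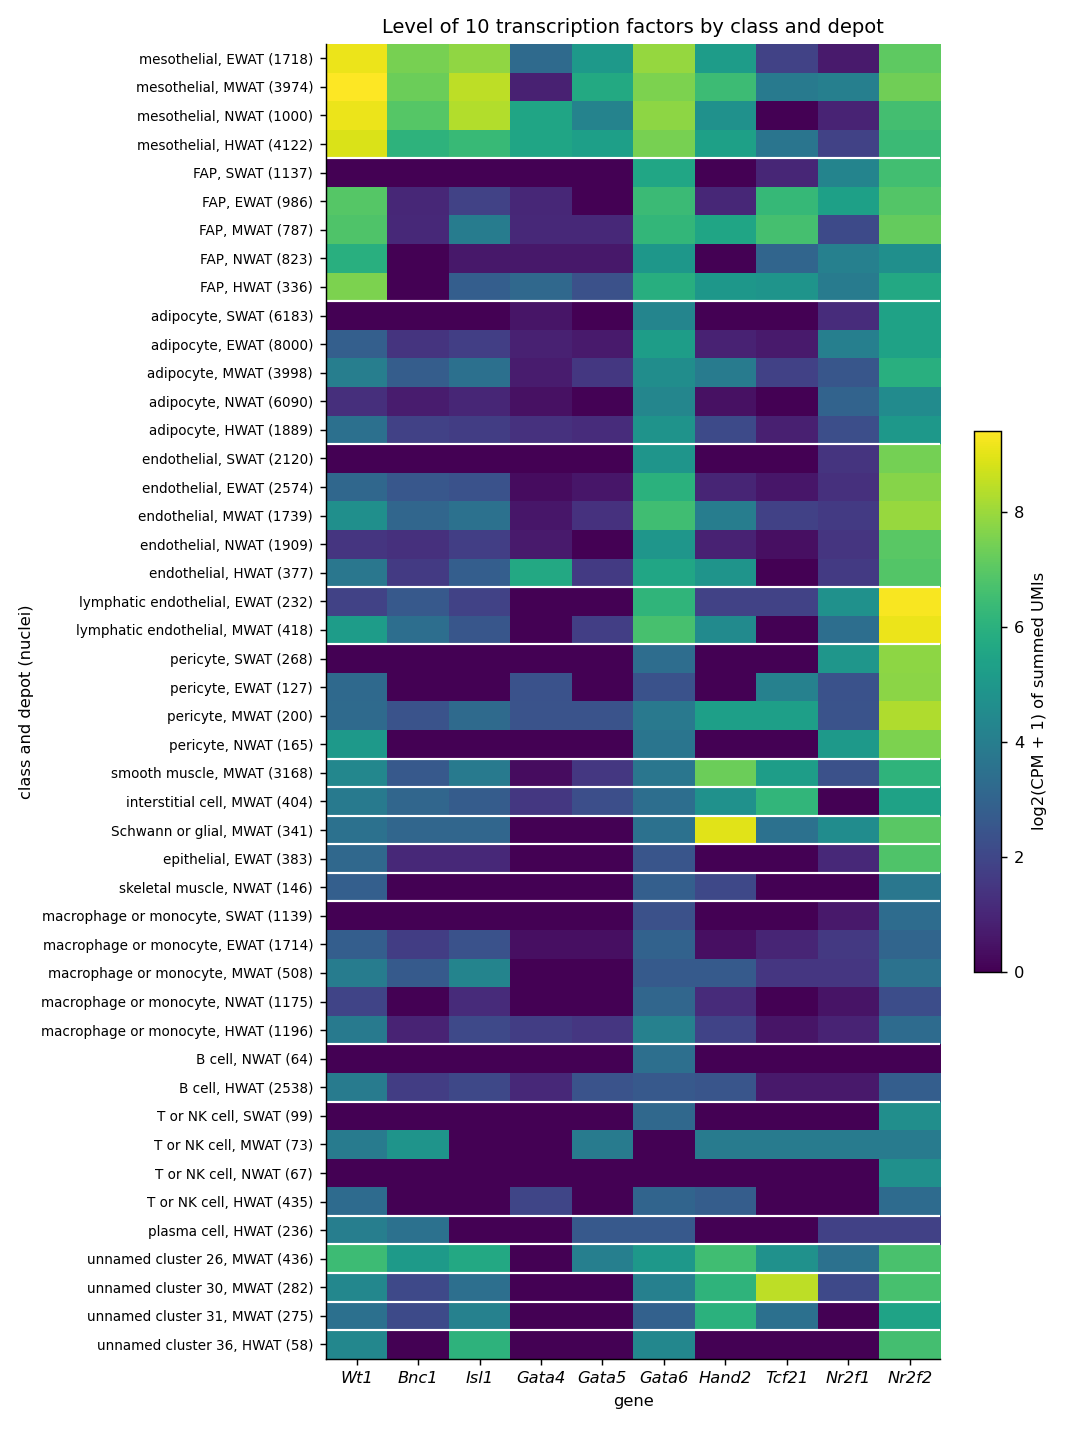
Colour gives log2(CPM + 1) of each gene (columns) in each combination of class and depot with 50 nuclei or more (rows, with their number of nuclei). The mesothelial-like rows carry Wt1, Bnc1, Isl1, Gata5 and Gata6 together, Hand2 is brightest in the Schwann- or glia-like row at 501 CPM and Nr2f2 in the lymphatic rows at 565 and 637 CPM.

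The members also separated the mesothelial-like sub-clusters within a depot. In HWAT, sub-cluster 1 (1863 nuclei, led by Zfp804b and by the airway genes Scgb1a1 and Scgb3a1) held Isl1 at 149.6 CPM (136–164), and sub-cluster 4 (1415 nuclei, led by Nrgn and Hpgd) at 6.74 CPM (3.85–10.9). Gata4 ran the other way, at 17.3 CPM (12.9–22.7) and 104 CPM (91.1–117). So did Hand2, at 15.6 CPM (11.5–20.8) and 90.97 CPM (79.2–104), and Tcf21, at 2.33 CPM (0.935–4.79) and 31.2 CPM (24.5–39.1).

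Sub-cluster 1 over 4 was 22.2 (13.52–39.2) for Isl1, and sub-cluster 4 over 1 was 5.99 (4.43–8.25) for Gata4, 5.82 (4.23–8.16) for Hand2 and 13.4 (6.19–34.5) for Tcf21. The part of free airway RNA in sub-cluster 1 was not tested. Wt1 was in both, at 489 and 388 CPM. The third large HWAT sub-cluster, number 5 (838 nuclei, led by Cxcl13, Dclk1 and Gatm), lay between the others for Isl1 (53 CPM, 7.87 (4.57–14.4) times sub-cluster 4). It held low levels of Gata4 (10.2 CPM), Hand2 (8.301) and Bnc1 (28.1), with Wt1 at 577 CPM. Pdgfra, a marker of the FAP list, was also among its leading genes, so its class is less certain. With each library clustered by itself, HWAT had 2785 mesothelial-like and 1240 FAP-like nuclei, against 4122 and 336 here. Whether sub-cluster 5 changed class in that setting was not tested. Per nucleus at 1000 UMIs, Gata4 was seen in 1 of the 243 HWAT mesothelial-like nuclei with an Isl1 UMI (0.412%) and in 4.59% of the 3200 without.

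In MWAT, sub-cluster 0 (2425 nuclei, led by Kcnip1, Eya4 and Rmst) held Isl1 at 499 CPM (475–525) and sub-cluster 3 (1429 nuclei, led by Nav2 and Cadm2) at 117 CPM (101–135), a ratio of 4.27 (3.67–4.98). Hand2 was higher in sub-cluster 3, at 108 CPM (92.8–125) against 78.1 CPM (68.6–88.6), a ratio of 1.38 (1.13–1.68). Isl1 and Hand2 were thus highest in different sub-clusters in MWAT as in HWAT, while Tcf21 was higher with Isl1 in MWAT, by 2.37 (1.25–4.87) (17.04 and 7.197 CPM in sub-clusters 0 and 3). In EWAT, Isl1 was at 242 CPM in the main sub-cluster 2 and 20.8 CPM, on 4 UMIs, in sub-cluster 8 (93 nuclei). Hand2 was at 31.9 and 93.4 CPM there, with sub-cluster 8 over 2 at 2.93 (1.67–4.87). Nr2f1 in MWAT mesothelium was 20.9 CPM (16.1–26.6) in sub-cluster 0 and 5.997 CPM (2.88–11.03) in sub-cluster 3. In FAP-like nuclei of NWAT, Wt1 stood at 117 CPM (85.4–157) in the Dpp4-type progenitor-like sub-cluster 4 and at 32.7 CPM (23.2–44.7) in sub-cluster 3, led by Pde11a and Bmper. The other Dpp4-type sub-cluster of NWAT, number 5, held 23.6 CPM (4.87–69.03) in 101 nuclei on 3 UMIs, and sub-cluster 4 over 5 was 4.95 (1.59–24.9). In EWAT the corresponding values were even, 125 CPM in sub-cluster 4 and 128 in the main sub-cluster 2. Sub-cluster 0 of EWAT was lower, at 53.3 CPM on 7 UMIs. Over it, sub-cluster 2 was 2.41 (1.14–6.09) and sub-cluster 4 was 2.35 (1.06–6.11).

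**Figure D5:**
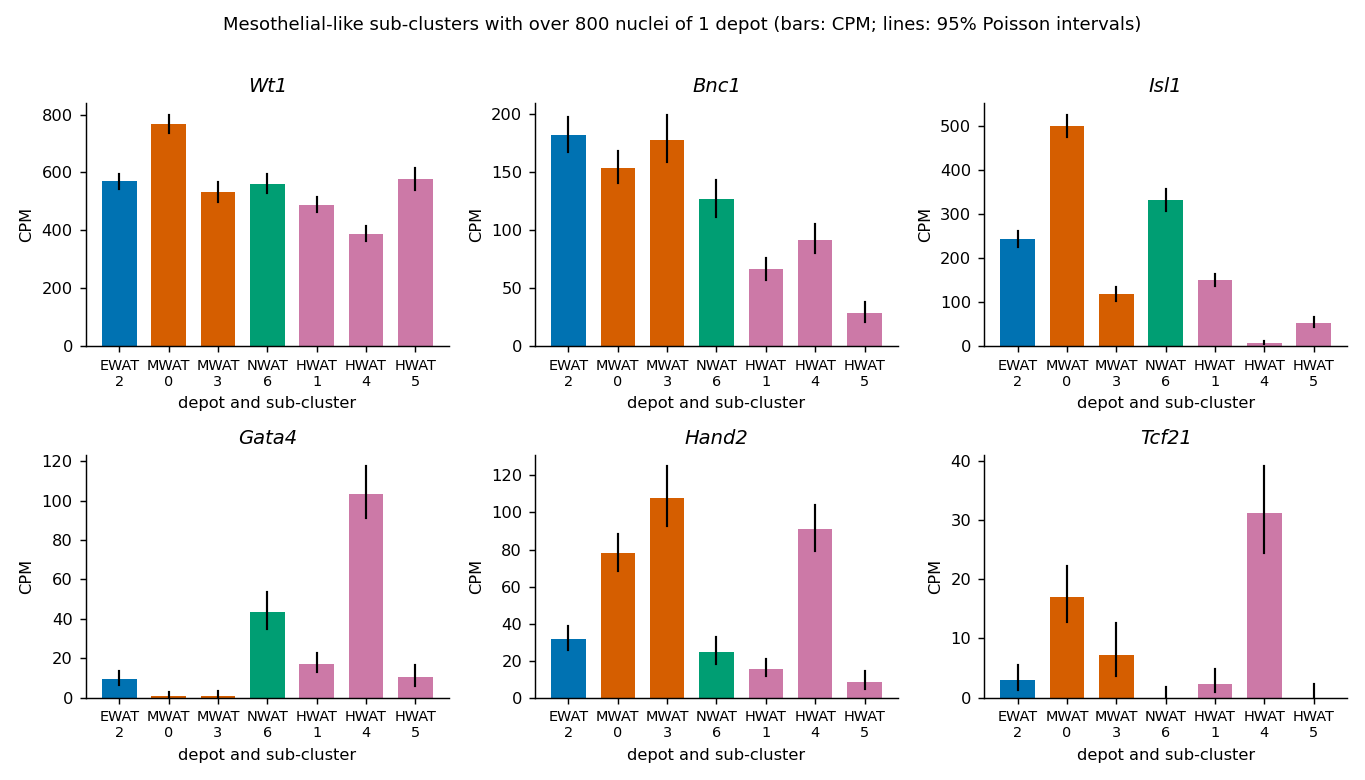
CPM (bars, from 0) with 95% Poisson intervals (lines) of 6 members in the largest mesothelial-like sub-clusters of each depot. In HWAT, Isl1 is at 150 CPM in sub-cluster 1 and 6.74 in sub-cluster 4, where Gata4 reaches 104, Hand2 91.0 and Tcf21 31.2 CPM.

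Several members could be seen in the same mesothelial-like nucleus. At 1000 UMIs per nucleus, 2 or more of the 10 genes had a UMI in 40.3% of MWAT, 31.8% of EWAT, 31.3% of NWAT and 18.8% of HWAT mesothelial-like nuclei. In FAP-like nuclei the share was 5.89% in EWAT, 5.69% in HWAT, 5.66% in MWAT, 0.968% in SWAT and 0.952% in NWAT. Isl1 was seen in 30.1% of the MWAT mesothelial-like nuclei with a Wt1 UMI and in 25.7% of those without, and Bnc1 in 14.3% and 13.3%. In EWAT the shares were 20.8% and 15.5% for Isl1 and 19.4% and 14.02% for Bnc1. In HWAT they were 7.95% and 6.59% for Isl1 and 5.92% and 5.75% for Bnc1. NWAT ran the other way, at 24.7% and 26.5% for Isl1 and 9.76% and 12.5% for Bnc1. For both genes the intervals of the shares with and without Wt1 overlapped in each depot.

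A list of 34 related genes (relatives, partner proteins, other mesodermal factors and neighbouring transcripts) was followed beside the members, and 33 of them were in the tables. Over FAP-like nuclei, 5 of 20 tested related genes were past 2-fold higher in mesothelial-like nuclei of EWAT, 7 of 21 in MWAT, 6 of 18 in NWAT and 5 of 23 in HWAT, and 4, 3, 4 and 6 were lower. Of all genes, 15.5%, 14.8%, 15.7% and 10.1% were higher and 9.44%, 8.63%, 11.3% and 11.8% lower in these depots. Bnc2, the relative of Bnc1, was higher in all 4 depots, at 1285, 2057, 1174 and 615 CPM in mesothelial-like and 468, 606, 285 and 257 CPM in FAP-like nuclei of EWAT, MWAT, NWAT and HWAT. Unlike Bnc1 it was abundant in stroma, SWAT included (317 CPM).

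Osr1, Ldb2, Tcf4 and Meis1 were picked after their values were seen. Osr1, a factor of kidney and gonad mesoderm, was past 2-fold in EWAT, MWAT and NWAT, at 696 CPM in mesothelial-like and 111 in FAP-like nuclei of NWAT. The LIM-binding protein gene Ldb2, the E-protein gene Tcf4 and the stromal homeobox gene Prrx1 were on the FAP-like side in all 4. Prrx1 stood at 429 CPM in FAP-like and 40.01 in mesothelial-like nuclei of EWAT. Against SWAT FAP-like nuclei, 3 of 18 related genes were past 2-fold higher in EWAT, 6 of 18 in MWAT, 3 of 17 in NWAT and 2 of 17 in HWAT, and 1, 2, 2 and 3 were lower. The shares of all genes in that comparison were 6.5%, 7.21%, 5.45% and 9.9% higher and 4.53%, 6.56%, 6.44% and 11.8% lower, so the higher count of HWAT is near its background. Meis1, a homeobox factor, was among the higher in each, at 134 CPM in SWAT and 342 (HWAT) to 512 CPM (EWAT) elsewhere.

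Zfpm2 (also called FOG2), a cofactor of GATA proteins, was past 2-fold over SWAT in EWAT, MWAT and NWAT FAP-like nuclei, at 711, 2094, 2391 and 1465 CPM in SWAT, EWAT, MWAT and NWAT. It had the highest CPM of the related genes in FAP-like nuclei of EWAT and MWAT. Wt1os, divergent from the Wt1 start and not overlapping it, was at 0 in SWAT FAP-like nuclei and at 31 (MWAT) to 80.9 CPM (HWAT) in the other depots. In adipocyte-like nuclei, 8 of 21 related genes were past 2-fold higher than in SWAT in EWAT, 7 of 21 in MWAT, 5 of 20 in NWAT and 1 of 18 in HWAT, and 1, 2, 5 and 6 were lower. Beside them, 7.34%, 7.53%, 4.84% and 9.59% of all genes were higher and 4.51%, 4.9%, 9.06% and 18.5% lower. Wt1os was among the higher in EWAT, MWAT and NWAT, and Hand2os1 in MWAT. The part of free RNA in these adipocyte-like values was not tested. As with the members, a related gene near 0 on one side passes the count minimum mostly through the other side. The related counts therefore describe the tested genes alone.

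The genes whose level ran most like each member over the 46 combinations were found by Pearson correlation of log2(CPM + 10) among 15144 genes with 200 UMIs or more. These points share libraries, depth and free RNA, and the values are descriptions. Overlapping or neighbouring transcripts led for 5 members: Hand2os1 for Hand2 (0.97), Wt1os for Wt1 (0.96), 1010001N08Rik for Gata6 (0.89), B130024G19Rik for Nr2f2 (0.89) and A830082K12Rik for Nr2f1 (0.83). All but Wt1os overlap their member on the other strand, so their likeness may include shared reads. Isl1 ran most like the keratin gene Krt7 (0.96), Gm765 (0.95) and the mesothelial mucin gene Muc16 (0.93). Bnc1 ran like Spock3 (0.94), Gata5 (0.94) and Lrrn4 (0.93), and Gata5 like Bnc1, Crb2 (0.92) and Lrrn4 (0.91).

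Wt1 was next most like Anxa9 (0.90) and Sntg1 (0.89), Gata6 like Thbd (0.87) and Gm13816 (0.83), and Hand2 like Gm34030 (0.93) and 5033428I22Rik (0.90). Nr2f2 was next most like Tanc1 (0.87) and Epn2 (0.86), and Nr2f1 like Tril (0.70) and Prrt1 (0.64). Tcf21 ran like Lgi2 (0.83), Spon2 (0.82) and Robo2 (0.81), and Gata4 like Scn10a (0.78), Gm35533 (0.75) and Slc6a4 (0.73). Among the members themselves the highest values were Bnc1 with Gata5 (0.94), Bnc1 with Isl1 (0.87) and Wt1 with Isl1 (0.81), and the lowest Gata4 with Nr2f1 (-0.15).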

How the data were processed

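Single-nucleus RNA was counted in 5 pooled libraries, 1 per depot. The deposited matrices hold raw UMI counts per gene and nucleus, without normalization, and their headers name Cell Ranger 6.0.1 (per the file headers). The submitters' processing notes name the build mm10 and the tool Seurat, without their roles. Which annotation release and strand were used, and whether intronic reads were counted, is not given in the sources used here. At least 8000 nuclei per depot were loaded and sequenced to 20000 reads per nucleus or more, per the labels' protocols.

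Nuclei with 200 genes or more and at most 10% mitochondrial UMIs were kept. Likely doublets were scored against simulated ones and removed at 0.8% per 1000 nuclei of a library. The nuclei were then clustered jointly on 2000 variable genes and 40 components by the Leiden method at resolution 1, without the 10 genes and without batch integration. A cluster took the class whose markers had the highest mean log2 fold over other classes, at least 1 and 0.5 above the next, with 3 raised markers or more, most of its list raised and no other list better represented in its top 10 genes. Classes were divided into sub-clusters at resolution 0.5, made without the 10 genes and named by a looser rule (mean log2 fold of 0.5, lead of 0.25). Counts were summed per class and library as CPM. Comparisons past 2-fold needed 20 counts in the pair of sums, with sums under 3 counts set to 3, and limits for 0 counts are those of 3 counts. Intervals are exact 95% Poisson, conditional binomial (ratios) and Clopper-Pearson (shares). Folds against 0 counts are lower bounds. All 10 genes are named. For each, the 3 genes of most similar pattern with 200 UMIs or more were found, and related genes were named by their level in mesothelial-like or FAP-like nuclei, with the neighbouring transcripts of the 10 genes. Other related genes are said to be chosen after their values were seen, and 1 gene of the list is not reported here. The 10 genes and all lists were chosen with earlier results of these data known.

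Alternatives were no doublet removal or removal at 1.6%, 500 genes, 2% mitochondrial UMIs, resolution 2, separate clustering, classes per nucleus, members among the variable genes, means per nucleus, subtraction of free RNA, a 4-fold threshold and no count minimum. Analysis used Python 3.11.15, numpy 2.4.6, scipy 1.17.1, pandas 2.3.3, igraph 0.11.9, leidenalg 0.10.2 and matplotlib 3.10.9. Gene positions came from GENCODE vM21 by gene identifier, and promoters from RefSeq, where 7 of the 10 genes matched by symbol. The counting of calls was tested on simulated data.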

Additional observations from a re-analysis of the deposited data

Results flagged for a closer look

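The log2 ratio of Nr2f1 in mesothelial-like over FAP-like nuclei had opposite signs between depots: -5.52 in EWAT, -3.58 in NWAT and -2.45 in HWAT, against 2.23 in MWAT. Sums under 3 counts were set to 3 for these values. Each depot is 1 library, so the difference between depots was not tested. The MWAT ratio rested on 3 UMIs in FAP-like nuclei.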

How the results depend on the processing

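The 24 counts of members past 2-fold (3 comparisons, 4 depots, 2 directions) were recomputed under 14 settings. They stayed within 1.5 times in 301 cases and moved in 35, of which the settings are named here. HWAT was the depot concerned in most of them: members lower in its mesothelial-like than FAP-like nuclei numbered 0 with no doublets removed, and 1 with doublets removed at 1.6%, with 2% mitochondrial UMIs, with each library clustered by itself, past 4-fold, and without FAP-like nuclei that hold a mesothelial marker UMI. Members lower in HWAT than SWAT FAP-like nuclei numbered 1 with 500 genes, with 2% mitochondrial UMIs, with separate clustering (where 6 were higher) and with free RNA subtracted. With the class set per nucleus, members higher in mesothelial-like than FAP-like nuclei were 2 in MWAT and 3 in HWAT (0 lower in HWAT). Members higher over SWAT in FAP-like nuclei were then 6 in EWAT, 6 in MWAT (0 lower), 2 in NWAT and 5 in HWAT (1 lower), and in adipocyte-like nuclei 3 in MWAT, 1 in NWAT and 0 in HWAT. Adipocyte counts over SWAT were 2 in EWAT and 1 in NWAT with free RNA subtracted, and in HWAT 1 with 2% mitochondrial UMIs and 1 past 4-fold. Past 4-fold, 0 were lower in NWAT FAP-like nuclei. Without a count minimum, more members entered: 2 lower in mesothelial-like nuclei of MWAT and 2 of NWAT, 7, 2 and 6 higher in FAP-like nuclei of MWAT, NWAT and HWAT, and 7 and 8 higher in adipocyte-like nuclei of EWAT and HWAT. The cause was not tested where the setting's construction does not show it. Of 77 levels, 21 moved by over 1.5-fold under some setting. The settings without shared barcodes and without marker-holding FAP-like nuclei were chosen after seeing the data. No paired analysis was possible because each depot has 1 library, and for the same reason none could be left out within a group. The depth limits Gata4, Gata5, Tcf21 and Nr2f1 most, with 545 to 876 UMIs each.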
